A study of Mus musculus with 10 samples.

Results

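The p53 group examined here holds Trp53, which encodes the transcription factor p53, and 9 genes that regulate p53 or are transcribed under its control. These are Mdm2, Mdm4, Bax, Bbc3, Pmaip1, Ccng1, Trp53inp1, Eda2r and Phlda3. The 10 genes were taken by their symbols from the 50559 genes of the count tables, and all 10 were among the 29952 genes that passed the filter on low counts. Counts came from bulk RNA sequencing of 4 MYC/SMARCA4 tumors, 3 SHH medulloblastomas (SHH MB) and 3 whole cerebella at postnatal day 7 (P7 cerebella) of mice. The tumors grew in cerebella of immunodeficient CD1nu/nu recipients from granule cell precursors of Math1-creERT2::Smarca4fl/fl pups, in which tamoxifen given at P3 deletes Smarca4 in cells with an active Math1 promoter. These precursors had been transduced with a lentivirus that drives murine Myc and GFP from a CMV promoter, and transduced and untransduced cells were transplanted together. For tumors 1 to 4 the labels give ages of 112, 96, 89 and 79 days. P7 cerebella came from Math1-creERT2::Smarca4fl/fl mice that received 0.4 mg of tamoxifen at P3, so that the control cerebella shared the Smarca4 deletion in Math1-positive cells. SHH MB arose in Math1-cre::Smofl/wt mice, which express an active Smoothened in Math1-positive cells, and the labels give 7 days for both SHH MB and P7 cerebella. Age and host differed between the MYC/SMARCA4 tumors and both other groups and cannot be told apart from the tumor type. Each library is 1 formalin-fixed sample, and whether the 3 samples of SHH MB came from separate animals is not given in the sources used here.

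p53 is held at a low level by MDM2, a ubiquitin ligase that marks it for degradation, and by the related MDM4, which binds and inhibits it. DNA damage, or strong MYC activity acting through ARF, frees p53 from MDM2. The stabilized protein then binds to paired half-sites in the DNA and drives genes for cell cycle arrest, apoptosis, repair and metabolism, with Mdm2 among them as a feedback loop. In the developing cerebellum, granule cell precursors are known to undergo p53-dependent apoptosis after DNA damage. Much of the control of p53 acts on the protein, which was not measured here, so all values below are RNA levels.

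Libraries held between 5663491 and 9352109 counts, and 3 counts, taken as the floor of measurement, corresponded to between 0.304 and 0.737 CPM (counts scaled to a common library size with TMM factors). The construct gene Myc was at 151 to 1570 CPM in the tumors, against 33.4 to 45.4 CPM in SHH MB and 12.9 to 14.2 CPM in P7 cerebella. Smarca4 was at 135 to 242 CPM in the tumors, 486 to 585 CPM in SHH MB and 219 to 280 CPM in P7 cerebella, where counts cover the whole gene and do not separate a recombined allele. Tumor 1 stood apart from the other tumors. Summed over 10 markers each, its mature granule neuron genes reached 10600 CPM, its Purkinje cell genes 14800 CPM and its myelin genes 4190 CPM, whereas its 10 proliferation genes summed to 138 CPM. In tumors 2, 3 and 4 the granule neuron sums were 3420, 353 and 1910 CPM and the proliferation sums 1800, 2030 and 1930 CPM. The granule neuron sums were 935 to 1070 CPM in P7 cerebella and 393 to 492 CPM in SHH MB, and the proliferation sums 800 to 1070 CPM and 2140 to 2600 CPM. No marker of any list was at 0 in every library of a group. In such bulk samples, fewer cells of a type and less RNA per cell cannot be told apart.

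Matches to the p53 consensus were read from the GRCm39 genome around the start of each gene, because p53 acts by binding such sites. A match was defined as 2 adjacent half-sites of 10 bases without spacer, with at most 2 mismatches to the p53 consensus and with the central C and G of both half-sites kept. The window reached 2000 bases to either side of the start. The consensus is palindromic, so that a match holds for both strands, and no other motif was searched. Of the 10 genes, 4 had a match (Bax, Pmaip1, Ccng1 and Eda2r), and 848 of 21757 protein-coding genes (3.9%) had one in windows of the same length. Only 0.556% of all windows held a match with at most 1 mismatch, and both matches of Ccng1 were of that kind. The matches are printed 5′ to 3′ on the strand of the gene, with the 4-base core of each half-site in capitals.
Ccng1, upstream, chr11:40646289-40646308, minus strand: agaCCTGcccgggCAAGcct
Ccng1, intron, chr11:40645763-40645782, minus strand: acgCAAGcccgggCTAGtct
Bax, intron, chr7:45115998-45116017, minus strand: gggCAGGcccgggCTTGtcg
Eda2r, intron, chrX:96420140-96420159, minus strand: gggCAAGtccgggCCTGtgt
Distances run from the start of the canonical transcript, which can lie inside the annotated span of a gene, to the middle of the site. The first site of Ccng1 lies 160 bases before the start and the second 366 bases after it, in an intron. The Bax site lies 318 bases and the Eda2r site 690 bases after the start, with 2 mismatches each. Pmaip1 has a match with 2 mismatches 94 bases before its start. Trp53, Mdm2, Mdm4, Bbc3, Trp53inp1 and Phlda3 had no match in this window, which says only that these letters are not there. A match is a description of the sequence and not a measurement of binding.

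**Figure D1:**
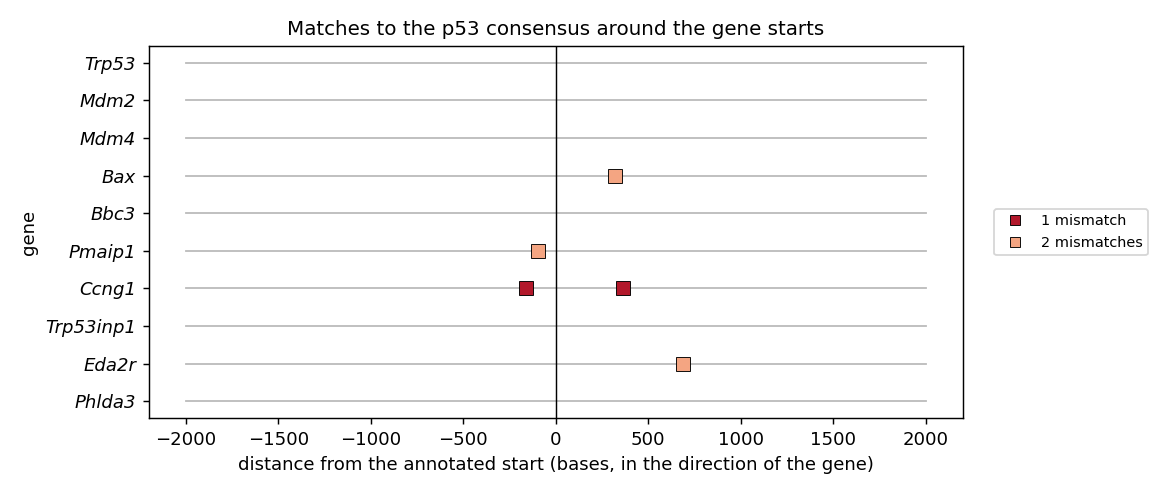
Position of matches to the p53 consensus around the start of each gene, in bases in the direction of transcription, with grey lines for the window searched and squares for matches with 1 (dark) or 2 (light) mismatches. Ccng1 has 2 matches with 1 mismatch each, Bax, Pmaip1 and Eda2r have 1 match with 2 mismatches each, and the lines of the other 6 genes are empty.

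Trp53 lies on chromosome 11 of GRCm39 from 69469669 to 69482701 on the plus strand and has 11 exons in its canonical transcript. Its levels were 33.3, 25.7 and 23.1 CPM in P7 cerebella 1 to 3 and 73.1, 61.2 and 63.9 CPM in SHH MB 1 to 3. MYC/SMARCA4 tumors 1 to 4 had 17.9, 70.3, 81.2 and 71.6 CPM. Thus tumors 2, 3 and 4 were above every P7 cerebellum, and tumor 1 was below every library of the other groups. On the log2 CPM scale the tumors averaged 5.71 ± 1.02 (SD, n = 4), SHH MB 6.05 ± 0.13 (SD, n = 3) and P7 cerebella 4.77 ± 0.27 (SD, n = 3). In the edgeR quasi-likelihood fit of all 10 libraries, the log2 fold change of tumors over P7 cerebella was 1.14 (SE 0.41) with a Benjamini-Hochberg adjusted p of 0.11, which did not pass the threshold of 0.05. Leaving out tumor 1 gave 1.36 with an adjusted p of 0.001, in a fit in which 15.7% of all genes passed. With the mean of the granule neuron markers as a covariate, added after the data were seen, it was 1.59 with an adjusted p of 0.00554. In this fit more genes passed, with 16.5% of all genes against P7 cerebella, 9.95% against SHH MB and 6.38% between SHH MB and P7 cerebella. Tumor 1 had the highest granule neuron sum, so this fit is not independent of leaving tumor 1 out. The tumors differed from SHH MB by -0.13 on the log2 scale (SE 0.40, adjusted p = 0.886 by edgeR), and by 0.063 without tumor 1. SHH MB did not overlap with P7 cerebella, with a log2 fold change of 1.27 (SE 0.43) that missed the threshold in the fit of all groups (adjusted p = 0.398). In an edgeR fit of only SHH MB and P7 cerebella, it passed with 1.29 and an adjusted p of 1.28e-07. In that fit 23.7% of all genes passed. Exons of Trp53 share 263 bases with Wrap53 and 156 bases with Gm57392 on the opposite strand, and Trp53-ps is a pseudogene copy. Whether counting used the strand is not given in the sources used here, so reads of these genes may be mixed.

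**Figure D2:**
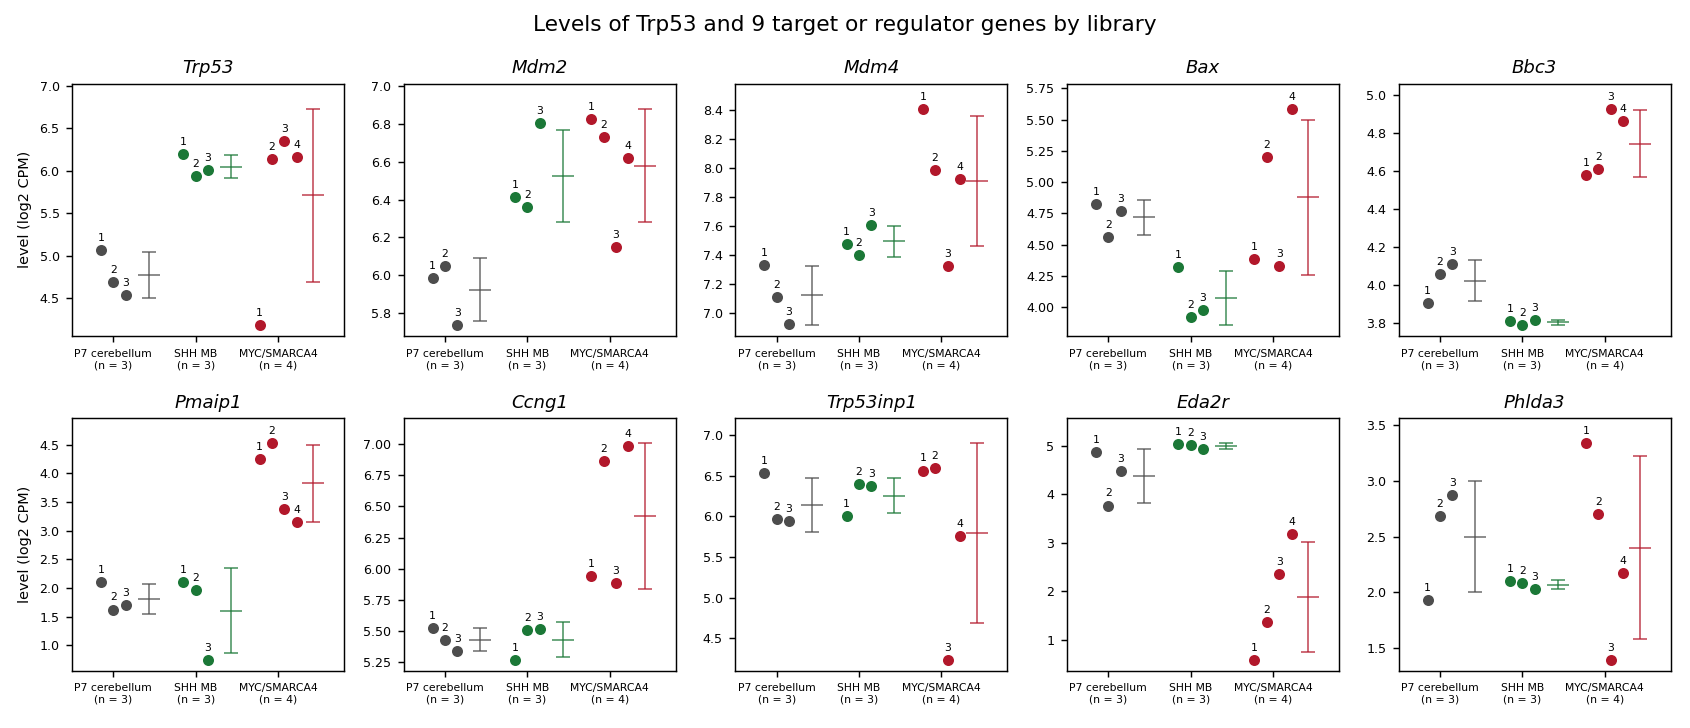
Level of each gene in each library as log2 CPM (vertical axis, a separate range per gene), with the replicate number above each point and the group mean with 1 SD to the right of the points (n = 3, 3 and 4). All 4 tumors lie above all other libraries for Bbc3, Pmaip1 and Ccng1 and below them for Eda2r, and tumor 1 lies below the other tumors for Trp53.

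The genes of the p53 inhibitors, Mdm2 and Mdm4, did not pass in the edgeR fit of all 10 libraries in any of the 3 comparisons. In tumors against P7 cerebella both passed in 2 of 18 settings, 1 of them DESeq2, which called 15.5% of all genes. Between SHH MB and P7 cerebella both passed in 2 of 17 settings, with lowest adjusted p of 0.000722 and 0.0202 by edgeR. These were the fit of only the 2 groups (23.7% of all genes passed) and that with the granule neuron covariate (6.38%). Mdm2, on chromosome 10 from 117524780 to 117546730 on the minus strand, had 113, 106, 70.7 and 98 CPM in tumors 1 to 4. It had 63.1, 65.9 and 53.1 CPM in P7 cerebella and 84.8, 81.8 and 112 CPM in SHH MB. All tumors and all SHH MB were therefore above all P7 cerebella, while tumors and SHH MB overlapped. The log2 fold change was 0.67 (SE 0.26) for tumors over P7 cerebella (adjusted p = 0.127) and 0.61 (SE 0.27) for SHH MB over P7 cerebella (adjusted p = 0.545). Between tumors and SHH MB it was 0.06 (SE 0.25, adjusted p = 0.916), a sign that turned under other scalings of the libraries. The lncRNA Gm56970 on the opposite strand shares 348 exon bases with Mdm2.

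Mdm4 (chromosome 1, 132887222 to 132958299, minus strand) encodes the partner of MDM2 that masks the activation domain of p53. Its levels were 340, 253, 160 and 242 CPM in the tumors, 161, 138 and 121 CPM in P7 cerebella and 178, 168 and 195 CPM in SHH MB. Tumor 3, at 160 CPM, lay within the range of the P7 cerebella and below all SHH MB, and the other tumors were above all libraries of both groups. All SHH MB were above all P7 cerebella, with a log2 fold change of 0.37 (SE 0.30, adjusted p = 0.809 by edgeR). For the tumors it was 0.83 (SE 0.29, adjusted p = 0.102) over P7 cerebella and 0.46 (SE 0.29, adjusted p = 0.401) over SHH MB. Without tumor 3, the library with the lowest neuron sums, Mdm2 and Mdm4 both passed against P7 cerebella, in a fit in which 34.6% of all genes passed. A pseudogene, Mdm4-ps, may share reads with Mdm4.

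Among the apoptosis genes was the one with the largest fold increase of the 10 genes. Pmaip1 encodes NOXA, a BH3-only protein that neutralizes MCL1. Its levels were 18.7, 22.7, 10.1 and 8.59 CPM in tumors 1 to 4, from 71 to 127 counts each. P7 cerebella had 4.05, 2.81 and 2.97 CPM and SHH MB had 4.01, 3.62 and 1.41 CPM, from 10 to 40 counts each. In CPM the lowest tumor was thus above the highest control by more than the spread of the controls. On the log2 CPM scale this did not hold, with the lowest tumor at 3.15 and the controls from 0.75 to 2.11. Pmaip1 rose 4.53-fold over P7 cerebella (log2 fold change 2.18, SE 0.47, adjusted p = 0.0204) and 4.93-fold over SHH MB (2.30, SE 0.47, adjusted p = 0.017). Against P7 cerebella 3.99% of all genes were called higher, and against SHH MB 2.43%. Tumors 1 and 2, with the highest granule neuron sums (10600 and 3420 CPM), had the most Pmaip1. Tumor 4, with a sum of 1910 CPM, had 8.59 CPM of Pmaip1. Tumor 3, whose granule neuron sum of 353 CPM was below that of every library of the other groups, had 10.1 CPM. The cause of these differences was not tested. With the granule neuron covariate the log2 fold change was 1.78 over P7 cerebella (adjusted p = 0.0139) and 1.58 over SHH MB (adjusted p = 0.0918). Pmaip1 passed without each of the tumors in turn. It did not pass without any 1 of the P7 cerebella (adjusted p 0.0894 to 0.141) or of the SHH MB (0.0633 to 0.11). In these fits only between 0.61% and 1.14% of all genes passed.

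Bbc3 encodes PUMA, a BH3-only protein that binds all antiapoptotic BCL2 proteins, and lies on chromosome 7 from 16042318 to 16052130 on the plus strand. It was at 23.6, 24.1, 30.1 and 28.8 CPM in tumors 1 to 4, the narrowest range of the 10 genes among the tumors. The P7 cerebella had 14.7, 16.3 and 17 CPM and the SHH MB 13.7, 13.6 and 13.8 CPM. All tumors were above all other libraries, and all SHH MB were below all P7 cerebella. Bbc3 rose 1.95-fold over SHH MB (log2 fold change 0.96, SE 0.24, adjusted p = 0.0371). Its log2 fold change over P7 cerebella was 0.74 (SE 0.23), with an adjusted p of 0.0787. The call against SHH MB was lost without tumor 2 (adjusted p = 0.0553), without tumor 4 (0.0962) and without any 1 of the SHH MB (0.203 to 0.213), while the log2 fold change stayed between 0.75 and 1.01. Of all genes, 3.08% passed without tumor 2, 4.21% without tumor 4 and 0.955% to 1.14% without 1 of the SHH MB, against 4.68% with all libraries. Without TMM factors the log2 fold change of Bbc3 was 0.75 with an adjusted p of 0.242.

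Bax encodes the effector that permeabilizes the outer mitochondrial membrane and lies on chromosome 7 from 45111015 to 45116325 on the minus strand. Tumors 1 to 4 had 20.6, 36.6, 19.8 and 47.8 CPM, P7 cerebella 28.1, 23.3 and 27 CPM, and SHH MB 19.7, 14.8 and 15.5 CPM. The tumors surrounded the P7 cerebella, and the lowest tumor and the highest SHH MB were nearly equal. The log2 fold change was 0.26 (SE 0.32, adjusted p = 0.609) over P7 cerebella and 0.91 (SE 0.33, adjusted p = 0.147) over SHH MB. Gm45808 on the same strand shares 192 exon bases with Bax, so that part of its reads cannot be assigned to either gene.

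Among the other target genes, Ccng1 encodes cyclin G1, which recruits the phosphatase PP2A to MDM2, and carries the 2 closest matches to the p53 consensus printed above. The gene spans 40639377 to 40646148 on chromosome 11 and is read from the minus strand. Its levels were 61.2, 116, 58.9 and 126 CPM in the tumors, 45.7, 42.7 and 40.2 CPM in P7 cerebella and 38.3, 45.3 and 45.4 CPM in SHH MB. All tumors were above all other libraries, and they formed a lower pair (tumors 1 and 3) and a higher pair (tumors 2 and 4). The log2 fold change was 1.08 against P7 cerebella (SE 0.31, adjusted p = 0.0567) and 1.08 against SHH MB (SE 0.31, adjusted p = 0.0689), so that both missed the threshold. Without tumor 1 and without tumor 3 Ccng1 passed against both groups. In these fits 15.7% and 34.6% of all genes passed against P7 cerebella and 9.75% and 23.4% against SHH MB. Nudcd2 on the opposite strand shares 114 exon bases with Ccng1.

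Eda2r, the gene of a TNF receptor family member that binds ectodysplasin A2, was the only one of the 10 genes to fall in the tumors. It lies on chromosome X from 96320270 to 96420847 on the minus strand. Tumors 1 to 4 had 1.23, 2.32, 4.86 and 8.83 CPM, from 5 to 73 counts. P7 cerebella had 29.1, 13.3 and 22.1 CPM and SHH MB 32.4, 31.8 and 30 CPM. The highest tumor was below the lowest control, and on the log2 scale the tumors differed among themselves more than the libraries of any other group. Eda2r was 4.8-fold lower than in P7 cerebella (log2 fold change -2.26, SE 0.49, adjusted p = 0.0214) and 7.01-fold lower than in SHH MB (-2.81, SE 0.49, adjusted p = 0.00733). Of all genes, 2.27% were called lower against P7 cerebella and 2.26% against SHH MB. The call against SHH MB remained without each library in turn (adjusted p of at most 0.0341). The call against P7 cerebella was lost without tumor 2 (adjusted p = 0.0526) and without any 1 of the P7 cerebella (0.0613 to 0.106). Of all genes, 3.36% passed without tumor 2 and 0.61% to 0.905% without 1 of the P7 cerebella, against 6.26% with all libraries. With the granule neuron covariate the log2 fold change was -1.82 against P7 cerebella (adjusted p = 0.0294) and -1.88 against SHH MB (adjusted p = 0.139).

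Trp53inp1, which encodes a stress protein of the p53 response and of autophagy, lies on chromosome 4 from 11156412 to 11175230 on the plus strand. Its levels were 94.3, 96.7, 18.6 and 54 CPM in the tumors, 92.1, 62.1 and 61.3 CPM in P7 cerebella and 63.9, 83.8 and 82.4 CPM in SHH MB. Tumors 1 and 2 were above all other libraries and tumors 3 and 4 below them. Its log2 fold change was -0.13 (SE 0.44, adjusted p = 0.862) over P7 cerebella and -0.22 (SE 0.44, adjusted p = 0.818) over SHH MB. The 2 tumors with the highest granule neuron sums were those with the most Trp53inp1, as they were for Pmaip1, Mdm2, Mdm4 and Phlda3. The remaining members went otherwise. Eda2r and Bbc3 were lowest in tumors 1 and 2, and Bax and Ccng1 were highest in tumors 2 and 4. Trp53 was lowest in tumor 1 and highest in tumor 3. With the mean of the granule neuron markers as a covariate the log2 fold change of Trp53inp1 was -1.15 against P7 cerebella (adjusted p = 0.0161) and -2.00 against SHH MB (adjusted p = 0.00711).

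Phlda3 encodes a pleckstrin homology protein that restrains AKT and lies on chromosome 1 from 135693809 to 135697686 on the plus strand. It had 9.83, 6.25, 2.36 and 4.23 CPM in the tumors, 3.55, 6.17 and 7.07 CPM in P7 cerebella and 4.01, 3.97 and 3.8 CPM in SHH MB, from 17 to 57 counts. The tumors covered the whole range of the other groups. The log2 fold change was 0.50 (SE 0.47, adjusted p = 0.597) over SHH MB and -0.002 over P7 cerebella (SE 0.45, adjusted p = 0.999).

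Counted over the 10 genes, 1 was called higher (Pmaip1), 1 lower (Eda2r) and 8 did not pass in tumors against P7 cerebella, where 6.26% of all genes were called. At an unadjusted p of at most 0.05, 7 of them passed, as did 25.2% of all genes. Against SHH MB, 2 were called higher (Bbc3 and Pmaip1), 1 lower (Eda2r) and 7 did not pass, where 4.68% of all genes were called. At an unadjusted p of at most 0.05, 5 passed, as did 19.8% of all genes. Levels did not overlap and were higher in the tumors for 4 genes against P7 cerebella (Mdm2, Bbc3, Pmaip1 and Ccng1) and for 4 against SHH MB (Bax, Bbc3, Pmaip1 and Ccng1). The same held for 10.3% and 7.83% of all genes. Eda2r was lower without overlap in both, as were 10.7% and 8.3% of all genes. The median log2 fold change was 0.71 against P7 cerebella, with -0.05 for all genes tested, and 0.48 against SHH MB, with 0.01 for all genes. DESeq2 called 7 of the 10 genes against P7 cerebella and 4 against SHH MB, where it called 15.5% and 12.5% of all genes. Limma on the deposited VST values called 2 in each, with 2.43% and 1.9% of all genes. Because both comparisons use the same 4 tumors, they are not independent of each other. In SHH MB against P7 cerebella the spread per gene was also shared with the tumors. There edgeR called 0 of the 10 genes and 0.224% of all genes (0.177% higher and 0.0467% lower). At an unadjusted p of at most 0.05 it called 2 (Trp53 and Mdm2), where 8.8% of all genes passed. DESeq2 and limma on the deposited VST values, also fitted to all 10 libraries, called 0, with 3.05% and 0.145% of all genes called. In an edgeR fit of only these 2 groups 5 passed (Trp53, Mdm2, Mdm4, Bax and Eda2r), where 23.7% of all genes passed. In this comparison 4 genes were higher in SHH MB without overlap (Trp53, Mdm2, Mdm4 and Eda2r) and 2 lower (Bax and Bbc3), against 17.8% and 19% of all genes. The median log2 fold change was 0.05, with -0.09 for all genes.

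**Figure D3:**
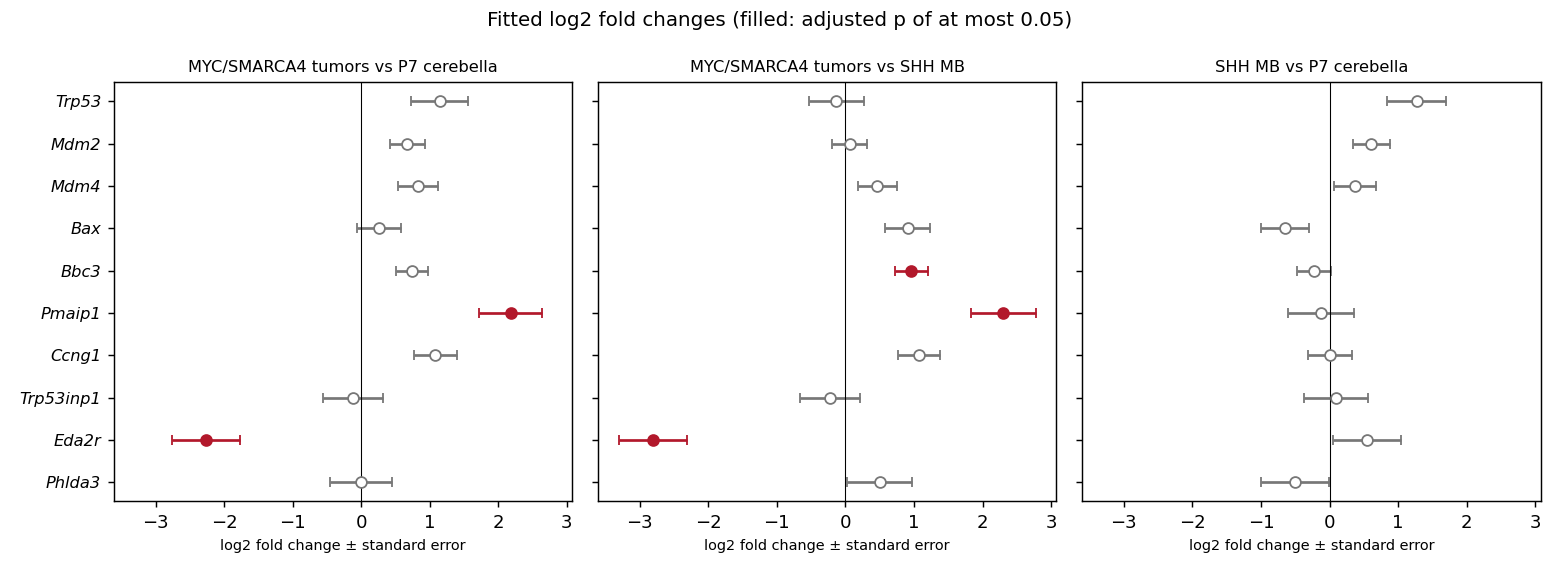
Fitted log2 fold change of each gene with its standard error in the 3 comparisons (horizontal axis), from the edgeR fit of all 10 libraries, where filled points have an adjusted p of at most 0.05. Pmaip1 and Eda2r pass on opposite sides in both comparisons of the MYC/SMARCA4 tumors, Bbc3 passes against SHH MB, and no gene passes between SHH MB and P7 cerebella.

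Levels were compared between genes as CPM per kilobase of all annotated exons. In the tumors Ccng1 had the highest mean level with 20.6 ± 8.1 CPM per kilobase (SD, n = 4), followed by Bax with 16.8 ± 7.26, Mdm2 with 12.6 ± 2.4 and Mdm4 with 12.2 ± 3.6. Next came Trp53inp1 with 8.97 ± 5.06, Trp53 with 8.17 ± 3.88, Bbc3 with 5.56 ± 0.688 and Pmaip1 with 5.5 ± 2.47. Phlda3 with 2.19 ± 1.23 and Eda2r with 0.575 ± 0.45 were lowest. The ranges of mean ± 1 SD of neighbours in this order overlapped throughout. In P7 cerebella the order of mean levels began with Bax at 14.1 ± 1.36 CPM per kilobase (SD, n = 3), which was above Trp53inp1 at 9.78 ± 2.39 and Ccng1 at 9.74 ± 0.628, by more than 1 SD of each. Mdm2 at 7.87 ± 0.878 and Mdm4 at 6.85 ± 0.982 overlapped with each other and were below Ccng1 and above Trp53 beyond their SDs. Trp53 at 3.71 ± 0.724, Bbc3 at 3.34 ± 0.247, Eda2r and Phlda3 at 2.16 ± 0.708 overlapped with their neighbours, and Pmaip1 was last at 1.2 ± 0.247. In SHH MB the upper 6 genes overlapped with their neighbours, from Mdm2 at 12 ± 2.12 through Trp53inp1 (10.4 ± 1.51), Ccng1 (9.77 ± 0.93), Bax (8.99 ± 1.44) and Trp53 (8.96 ± 0.845) to Mdm4 at 8.84 ± 0.654 (SD, n = 3). Below them Eda2r, Bbc3 at 2.86 ± 0.0265 and Phlda3 at 1.52 ± 0.0429 were each apart from the gene above by more than their SDs, and Pmaip1 at 1.1 ± 0.514 overlapped with Phlda3. Eda2r, the last in the tumors, was at 4.19 ± 0.166 in SHH MB and 2.87 ± 1.05 in P7 cerebella, where it was above Pmaip1 in both. Lengths cover the exons of all transcripts of a gene, from 1856 bases in Bax to 20386 in Mdm4. Exons that are not transcribed lower the level per kilobase, so the order between genes depends on these lengths too.

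The genes whose pattern was most like that of Trp53 were Larp7, Rad54b and Psmc3ip. Likeness was the root mean square difference of centred log2 CPM over the 10 libraries, among 22065 genes. This difference was 0.134, 0.159 and 0.172, beside an SD of 0.815 for Trp53 itself. Larp7 ranged from 3.62 to 5.59 log2 CPM in the tumors, from 5.19 to 5.23 in SHH MB and from 4.05 to 4.42 in P7 cerebella. For the mean of the other 9 genes, which varied with an SD of only 0.241, the closest were Slc38a1 (0.0521), Yars (0.0724) and Pcnx4 (0.0766). These values are a description over libraries that share groups and depth.

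The wider pathway was followed in 8 lists with 82 genes, of which edgeR called 9 against P7 cerebella, 5 against SHH MB and 0 between SHH MB and P7 cerebella. In the same order 27, 26 and 10 passed at an unadjusted p of at most 0.05, DESeq2 called 16, 18 and 4, and limma on the VST values 6, 2 and 0. Over all genes edgeR called 6.26%, 4.68% and 0.224%, 25.2%, 19.8% and 8.8% passed at the unadjusted p, DESeq2 called 15.5%, 12.5% and 3.05%, and limma 2.43%, 1.9% and 0.145%. Except for Gnl3 against P7 cerebella and Gls2 against SHH MB, each of these edgeR calls was lost without any 1 of the control libraries. In these fits few of all genes passed, 0.61% to 0.905% without 1 of the P7 cerebella and 0.955% to 1.14% without 1 of the SHH MB. Without tumor 2 and without tumor 4 the shares were 3.36% and 3.35% against P7 cerebella and 3.08% and 4.21% against SHH MB. Atm, Nop53, Aen and Trp73 against P7 cerebella and Gnl3 and Aen against SHH MB were lost also without tumor 2 and without tumor 4, Plk2 against SHH MB without tumor 2 and Mybbp1a against P7 cerebella without tumor 4. The highest adjusted p with 1 library left out was 0.261 for Atm, 0.139 for Atr, 0.121 for Npm1, 0.233 for Nop53, 0.136 for Mybbp1a, 0.106 for Gls2 and 0.224 for Trp73 against P7 cerebella. Against SHH MB it was 0.187 for Gnl3, 0.227 for Plk2 and 0.0907 for Plk3. Of 13 kinases and cofactors that activate p53, Atm and Atr rose in tumors against P7 cerebella. Against SHH MB none passed in edgeR, 0 at an unadjusted p of at most 0.05 and 0 by DESeq2 or limma. ATM and ATR are the kinases that sense DNA breaks and stalled replication forks. Atr was at 98.8, 95.3, 93.7 and 133 CPM in the tumors and at 55.1, 37.7 and 39.3 CPM in P7 cerebella, without overlap (log2 fold change 1.26, SE 0.25, adjusted p = 0.0171). Atm was at 98.5, 286, 250 and 260 CPM against 103, 74.2 and 89.4 CPM (1.33, SE 0.35, adjusted p = 0.042), so that tumor 1 lay within the P7 cerebella. The median log2 fold change of the list was 0.48 against P7 cerebella and 0.20 against SHH MB. In the other direction the lowest p belonged to Trp53bp1 (-0.04, adjusted p = 0.937) and Crebbp (-0.50, adjusted p = 0.38), and against SHH MB the lowest p of higher genes to Ppp1r13b (1.05, adjusted p = 0.278).

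Of 9 genes of the route from ARF and the nucleolus to MDM2, 4 rose against P7 cerebella and 1 against SHH MB in edgeR, which called 3.99% and 2.43% of all genes higher. Without adjustment 8 and 6 had a p of at most 0.05, DESeq2 called 5 and 5, and limma called 3 and 0. Gnl3 encodes nucleostemin, a nucleolar GTPase that binds MDM2. It was at 59.9, 110, 130 and 170 CPM in the tumors, 22.7, 20.8 and 11.7 CPM in P7 cerebella and 40.9, 38 and 48.2 CPM in SHH MB. It rose 6.37-fold over P7 cerebella (log2 fold change 2.67, SE 0.38, adjusted p = 0.00318) and 2.78-fold over SHH MB (1.47, SE 0.36, adjusted p = 0.0349). Npm1, the gene of the nucleolar chaperone nucleophosmin, rose by 2.48 on the log2 scale over P7 cerebella (adjusted p = 0.0136), Mybbp1a by 2.16 (adjusted p = 0.0171) and Nop53 by 0.86 (adjusted p = 0.0362). None of the genes of RPL5, RPL11, RPL23 and RPS7, ribosomal proteins that bind MDM2 when ribosome assembly is disturbed, passed in edgeR. Against P7 cerebella all 4 had an unadjusted p of at most 0.05, and their log2 fold changes were 1.19 for Rpl5 (adjusted p = 0.101), 0.94 for Rpl11 (0.151), 0.98 for Rpl23 (0.119) and 0.98 for Rps7 (0.143). DESeq2 called Rpl5 against P7 cerebella (adjusted p = 0.0414) and Rpl11 against SHH MB (adjusted p = 0.0422), which are named here after their values were seen. Cdkn2a, whose reads do not separate the transcripts of p16 and of ARF, was near the floor with 0.491 to 2.08 CPM in the tumors, 0.912 to 3.4 CPM in P7 cerebella and 0.845 to 1.85 CPM in SHH MB. It did not pass (log2 fold change -0.59, adjusted p = 0.533, and 0.17, adjusted p = 0.91). The list's median was 0.98 against P7 cerebella and 1.12 against SHH MB.

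None of 6 other negative regulators of p53 passed in edgeR in any comparison, with medians of 0.70 and 0.49. At an unadjusted p of at most 0.05, 2 passed against P7 cerebella and 1 against SHH MB, DESeq2 called 1 in each and limma 0. The lowest p belonged to the deacetylase gene Sirt1 (0.98, adjusted p = 0.071) against P7 cerebella and to the ubiquitin ligase gene Trim24 (-0.81, adjusted p = 0.073) against SHH MB, with Rchy1 (0.61, adjusted p = 0.337) on the other side.

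**Figure D4:**
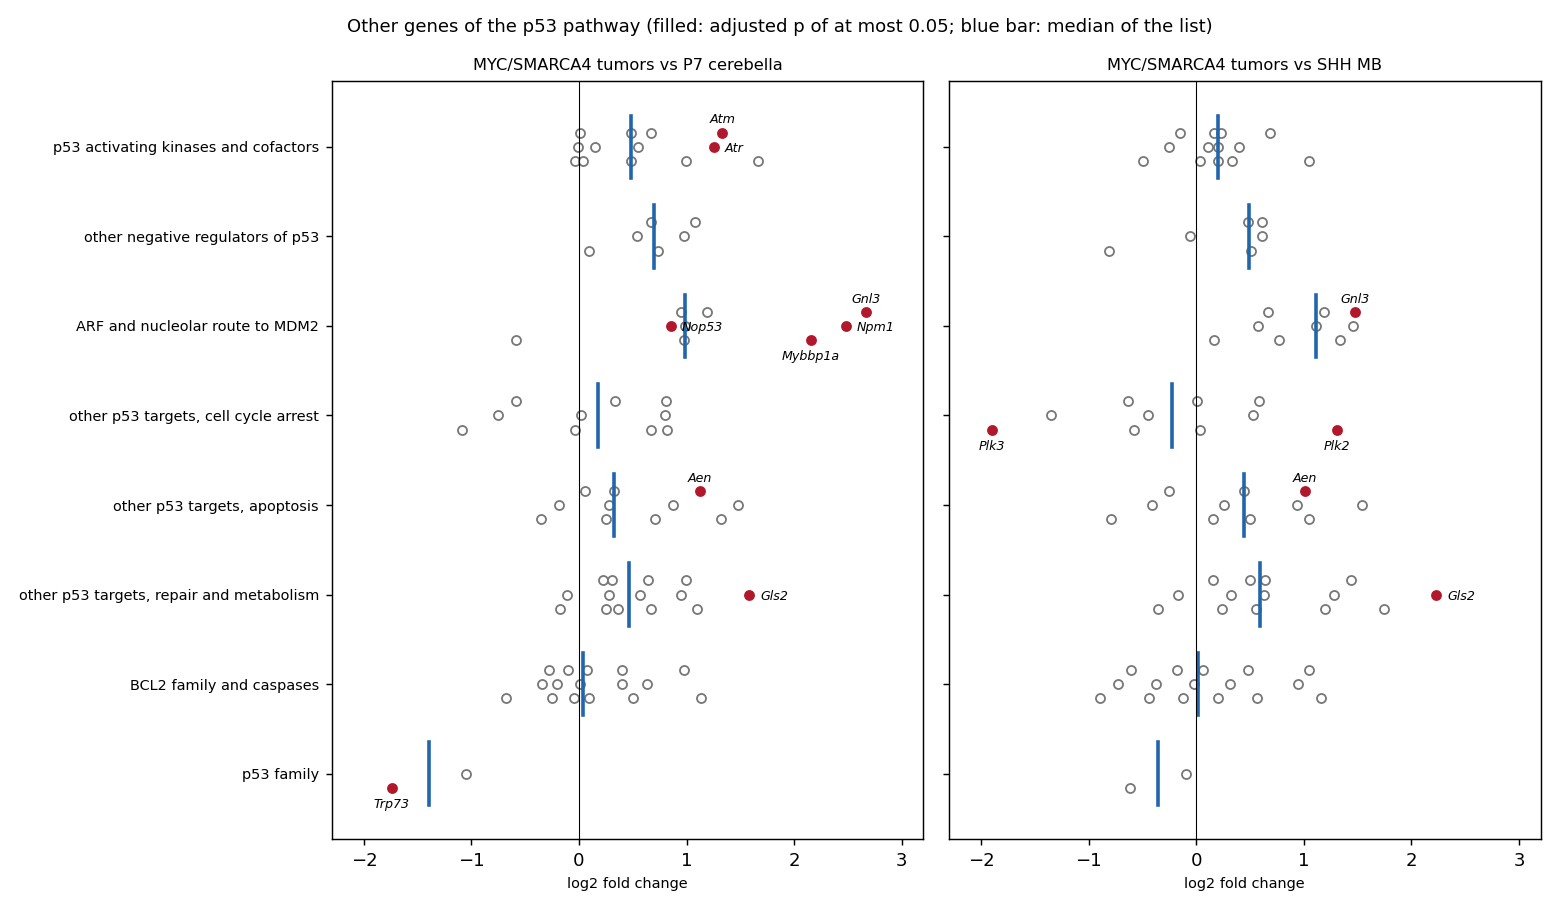
Log2 fold changes of the genes of 8 p53 pathway lists in MYC/SMARCA4 tumors against P7 cerebella (left) and against SHH MB (right), with filled points and names for an adjusted p of at most 0.05 and a blue bar at the median of each list. The nucleolar list has 4 filled points on the left, and Gls2 and Aen are filled on both sides.

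Of 10 further targets with roles in cell cycle arrest, 0 passed in edgeR against P7 cerebella, while Plk2 rose and Plk3 fell against SHH MB. Against P7 cerebella 2 passed at an unadjusted p of at most 0.05, and DESeq2 and limma called 0. The medians were 0.18 and -0.22. Plk2 was at 39.6, 83.7, 58.3 and 35.9 CPM in the tumors and 18.8, 21.2 and 25.8 CPM in SHH MB (log2 fold change 1.31, SE 0.32, adjusted p = 0.0377). Plk3 was at 2.7, 7.85, 6.94 and 11 CPM against 29.9, 24.7 and 26.5 CPM (-1.90, SE 0.39, adjusted p = 0.0177), and with the granule neuron covariate it did not pass. Against P7 cerebella the same genes had the lowest p, with 0.82 (adjusted p = 0.134) and -1.09 (adjusted p = 0.111).

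Cdkn1a, which encodes the CDK inhibitor p21 and is the best known arrest target of p53, depended on tumor 1. Its levels were 69.3, 12.5, 6.25 and 14.5 CPM in tumors 1 to 4, 22.4, 26 and 26.7 CPM in P7 cerebella and 22.1, 24.4 and 27.6 CPM in SHH MB. Tumor 1 was above and the other 3 tumors were below every library of the other groups. With all tumors the log2 fold change was 0.02 against P7 cerebella (adjusted p = 0.987) and 0.04 against SHH MB (adjusted p = 0.981). Without tumor 1 it was -1.27 (adjusted p = 0.00689) and -1.28 (adjusted p = 0.00903), in fits in which 15.7% and 9.75% of all genes passed. Tumor 1 was also the library with the lowest proliferation sum and the highest neuron and myelin sums. With the granule neuron covariate the log2 fold changes were -1.58 (adjusted p = 0.00667) and -2.56 (adjusted p = 0.00309). In this fit 16.5% and 9.95% of all genes passed. Because tumor 1 had the highest granule neuron sum, the fit is not independent of leaving tumor 1 out.

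Among 11 further apoptosis targets Aen, the gene of a nuclease that digests DNA in apoptosis, was the 1 that edgeR called. Without adjustment 4 had a p of at most 0.05 against P7 cerebella and 5 against SHH MB, DESeq2 called 4 and 3, and limma 0 and 0. The further DESeq2 calls, named after their values were seen, were Tnfrsf10b and Zmat3 in both comparisons and Siva1 against P7 cerebella. Aen was at 34.9, 40.7, 34.8 and 54.3 CPM in the tumors, 19.1, 21.5 and 15.8 CPM in P7 cerebella and 23.1, 17.2 and 21.3 CPM in SHH MB. All tumors were above all other libraries. Aen rose 2.18-fold over P7 cerebella (log2 fold change 1.13, SE 0.26, adjusted p = 0.0279) and 2.01-fold over SHH MB (1.01, SE 0.26, adjusted p = 0.0469). With libraries left out in turn the adjusted p reached 0.19 and 0.267. The medians were 0.32 and 0.44, and Trp53i11 had the lowest p among lower genes (-0.35, adjusted p = 0.481, and -0.80, adjusted p = 0.187).

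In repair and metabolism, 14 of 15 targets were tested and Gls2, which encodes a mitochondrial glutaminase, was the 1 that edgeR called in both comparisons. In each of them 5 had an unadjusted p of at most 0.05, DESeq2 called 3 and limma called 1. The levels of Gls2 were 20.9, 19.6, 15.4 and 23.1 CPM in the tumors, 7.29, 7.58 and 4.81 CPM in P7 cerebella and 4.17, 5.14 and 3.24 CPM in SHH MB. The groups were far apart, with tumor 3 the lowest tumor at more than any control. The log2 fold change was 1.58 (SE 0.31, adjusted p = 0.0147) over P7 cerebella and 2.23 (SE 0.32, adjusted p = 0.00216) over SHH MB. The call against SHH MB held without each library in turn (adjusted p of at most 0.0318). The list's medians were 0.46 and 0.59, and the lowest p of lower genes belonged to Ddit4 (-0.18, adjusted p = 0.751) and Ercc5 (-0.36, adjusted p = 0.419).

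**Figure D5:**
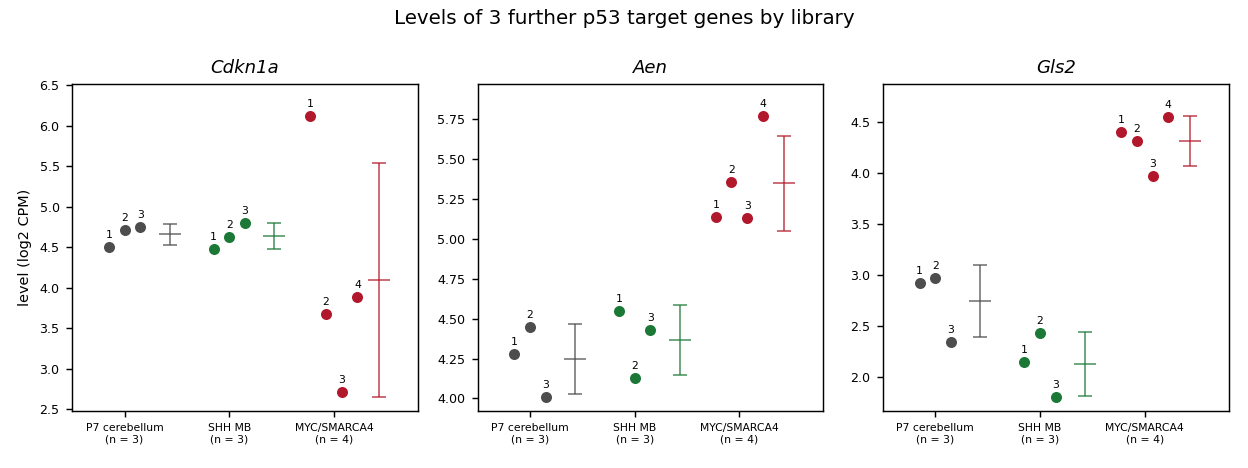
Level of Cdkn1a, Aen and Gls2 in each library as log2 CPM, with replicate numbers and, to the right, the group mean with 1 SD (n = 3, 3 and 4). Cdkn1a of tumor 1 is the highest value and those of tumors 2, 3 and 4 are the lowest, whereas all 4 tumors are above all other libraries for Aen and Gls2.

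None of 16 genes of the BCL2 family and the caspases passed in edgeR in the comparisons of the tumors, with medians of 0.04 and 0.02. At an unadjusted p of at most 0.05, 1 passed against P7 cerebella and 6 against SHH MB, where DESeq2 called 0 and 3 and limma 0 and 0. The lowest p belonged to Bid (1.13, adjusted p = 0.135) and Bmf (-0.35, adjusted p = 0.435) against P7 cerebella, and to Cycs (0.95, adjusted p = 0.0781) and the BH3-only gene Hrk (-0.90, adjusted p = 0.0796) against SHH MB. Of the 2 relatives of Trp53, Trp73, which is active in developing neurons, was at 4.18, 1.61, 8.33 and 4.23 CPM in the tumors and at 16, 19.7 and 10.8 CPM in P7 cerebella. It fell without overlap (log2 fold change -1.74, SE 0.47, adjusted p = 0.0469). SHH MB had 5.09, 6.78 and 2.96 CPM of Trp73 and overlapped with the tumors, and Trp63 had -0.62 against SHH MB (adjusted p = 0.597).

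In SHH MB against P7 cerebella no gene of the 8 lists passed in edgeR, 10 had an unadjusted p of at most 0.05 and DESeq2 called 4. The lowest p among higher genes belonged to Atr (0.86, adjusted p = 0.347), Trim24 (0.91, adjusted p = 0.283), Gnl3 (1.20, adjusted p = 0.35), Ckap2 (1.69, adjusted p = 0.304), Siva1 (0.82, adjusted p = 0.61), Polk (0.48, adjusted p = 0.668) and Bcl2l11 (0.82, adjusted p = 0.371). Among lower genes it belonged to Ppp1r13b (-1.04, adjusted p = 0.627), Cdkn2a (-0.76, adjusted p = 0.821), Plk2 (-0.49, adjusted p = 0.745), Perp (-0.79, adjusted p = 0.642), Ak1 (-1.39, adjusted p = 0.563), Casp9 (-0.58, adjusted p = 0.72) and Trp73 (-1.64, adjusted p = 0.349).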

How the data were processed

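RNA of formalin-fixed punches was depleted of ribosomal RNA, and CORALL libraries were sequenced as single-end reads. Per the labels and the study's methods, the authors trimmed reads with Trimmomatic 0.38.1, aligned them to GRCm39 with STAR 2.7.8a and deposited raw counts per gene from featureCounts 2.0.1. The authors also deposited a table on a log2 scale, made by the variance-stabilizing transformation (VST) of DESeq2, which served as an alternative only. The annotation and strand setting of the counting are not given in the sources used here.

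Counts were tested with edgeR 4.0.16 (quasi-likelihood, R 4.3.3), with a mean per group over all 10 libraries, TMM factors and filterByExpr. The common dispersion was 0.178. P-values were adjusted over 29952 genes by the Benjamini-Hochberg method, and an adjusted p of at most 0.05 was called. Log2 CPM used a prior count of 2. The floor refers to counts only, and amplified reads are not independent molecules. SDs give the spread between the libraries of a group. SEs come from the quasi-likelihood fit and include variation between samples. P-values test differences between group means against a spread per gene that was estimated from all groups together. The larger spread among the tumors therefore also enters the comparison of SHH MB with P7 cerebella. In the same way the smaller spread of these groups enters the comparisons of the tumors. Pairs of tumors differed by a chi-square per degree of freedom of 26.6 to 99.1, pairs of SHH MB or of P7 cerebella by 3.76 to 6.22. Each library was counted as a sample of its own. Such values cannot tell whether samples came from the same animal. Limma 3.58.1, DESeq2 1.42.0 and the other alternatives are given in the closing section. The scripts were tested on simulated counts drawn with the same dispersion in all libraries. That test therefore does not cover the larger differences among the tumors.

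The 10 genes, the 8 pathway lists and the marker lists were chosen with earlier results of these data known. Named were all 10 genes, the gene with the lowest p in each direction per list and comparison, all called list genes, Cdkn1a, Cdkn2a and Gnl3, and the 3 genes most like Trp53 or most like the mean of the other 9, among genes with a mean of at least 1 log2 CPM. Positions and sequences come from GENCODE and GRCm39, and those of Pmaip1 are not reported here.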

Additional observations from a re-analysis of the deposited data

Results flagged for a closer look

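Among the 4 MYC/SMARCA4 tumors, Trp53 of tumor 1 lay far from the others. Its gap to the next tumor made up 0.904 of the range of the group on the log2 CPM scale, above the critical value of Dixon's test for 4 samples. The level was 17.9 CPM in tumor 1 and 70.3 to 81.2 CPM in the other tumors. Of the 10 genes tested in this way, this was the only one past the critical value, and chance alone flags about 1 in 20 such groups. Tumor 1 also had the lowest sum of proliferation genes (138 CPM) and the highest sum of granule neuron genes (10600 CPM), and their part in the Trp53 level was not tested.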

How the results depend on the processing

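The 10 genes gave 2 calls against P7 cerebella, 3 against SHH MB and 0 between SHH MB and P7 cerebella. In the same order, the counts were 7, 5 and 2 at an unadjusted p of at most 0.05. At the stricter thresholds of 2.5 for the log2 fold change and 0.01 for the adjusted p they were 0, 1 and 0, and with at least 10 counts in every library, where Eda2r was not tested, 1, 1 and 0. In fits of only the 2 groups compared they were 0, 1 and 5. DESeq2 gave 7, 4 and 0 calls, where it called 15.5%, 12.5% and 3.05% of all genes, and limma on the VST values 2, 2 and 0 (2.43%, 1.9% and 0.145%). Each library left out in turn gave 0 to 5, 1 to 5 and 0. Calls were most frequent (5) without tumor 1 in both comparisons of the tumors and without tumor 3 against P7 cerebella, and fewest without any 1 of the P7 cerebella (0) or of the SHH MB (1, Eda2r), where few of all genes passed. After the data were seen, 2 alternatives were added. Without normalization factors 1 gene was called against P7 cerebella, and with the granule neuron markers as a covariate the counts were 6, 2 and 2, where 16.5%, 9.95% and 6.38% of all genes passed.

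Without normalization factors the median of all genes shifted by -0.33, -0.23 and -0.11 on the log2 scale, and calls over all genes were 315 higher and 1157 lower against P7 cerebella, 437 and 908 against SHH MB and 43 and 40 between the latter, in place of 1194 and 680, 727 and 676, and 53 and 14. The median of the 10 genes was then 0.33 and 0.11, in place of 0.71 and 0.48. The other scalings moved the median of all genes by at most 0.08. Without tumor 1 the median of the 10 genes against SHH MB was 0.11.

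Replicate numbers do not pair the samples. Samples with the same number correlated between -0.18 and 0.12, and at most 1 of 3 correlated best with its own number. With the replicate number as a block, 2, 2 and 0 genes were called, and tumor 4 added nothing.

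Pmaip1 passed in 13 of 18 settings in both comparisons of the tumors, Eda2r in 12 of 17 against P7 cerebella and 16 of 17 against SHH MB, and Bbc3 against SHH MB in 6 of 18. None of these 3 changed sign there. Signs turned for values that edgeR did not call with all libraries. Of the turned values only those of Cdkn1a without tumor 1 and with the covariate passed. Against P7 cerebella, Phlda3 was 0.031 with RLE factors, 0.057 with no filter on low counts, 0.031 with the replicate block and 0.028 with DESeq2. Bax was -0.019 with at least 10 counts, -0.047 with the replicate block and -0.12 without normalization factors. Cdkn1a was -0.20 without mitochondrial and rRNA-like genes, -0.35 with at least 10 counts, -0.24 with the replicate block, -0.22 with only the 2 groups, -0.44 on VST values, -0.63 without factors and -1.58 with the covariate. Against SHH MB, in the same order of settings, Cdkn1a was -0.17, -0.25, -0.22, -0.045, -0.45, -0.50 and -2.56. Mdm2 was -0.029 without mitochondrial and rRNA-like genes, -0.13 with at least 10 counts, -0.005 with only the 2 groups, -0.24 without factors and -0.39 with the covariate. With the covariate Trp53 was 0.86, Mdm4 -0.24 and Phlda3 -0.92. Between SHH MB and P7 cerebella, Ccng1 was -0.005, -0.075, -0.003 and -0.10 without mitochondrial and rRNA-like genes, with at least 10 counts, with the replicate block and without factors, Trp53inp1 was -0.009 without factors, and with the covariate Pmaip1 was 0.20 and Phlda3 0.11. With each library left out, values that turned ranged against P7 cerebella from -1.27 to 0.25 for Cdkn1a, from -0.46 to 0.021 for Trp53inp1, from -0.49 to 0.084 for Phlda3 and from -0.075 to 0.31 for Bax. Against SHH MB they ranged from -0.40 to 0.063 for Trp53, from -0.15 to 0.21 for Mdm2, from -0.011 to 0.59 for Phlda3 and from -1.28 to 0.27 for Cdkn1a. Between SHH MB and P7 cerebella they ranged from -0.34 to 0.24 for Pmaip1, from -0.031 to 0.11 for Ccng1 and from -0.01 to 0.30 for Trp53inp1. The cause of these changes was not tested.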

Other observations

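Within a library, the log2 ratio of Mdm2 to Trp53 CPM was 2.64, 0.59, -0.20 and 0.45 in tumors 1 to 4, 0.92, 1.35 and 1.19 in P7 cerebella and 0.21, 0.42 and 0.80 in SHH MB. The ratio of Mdm4 to Mdm2 covered a narrow range, from 1.18 to 1.58 in the tumors, from 1.06 to 1.34 in P7 cerebella and from 0.80 to 1.06 in SHH MB. The ratio of Bax to Trp53 was 0.20, -0.94, -2.02 and -0.58 in tumors 1 to 4, between -0.25 and 0.23 in P7 cerebella and between -2.03 and -1.87 in SHH MB. These ratios compare counts that are not corrected for gene length and are given without a test.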
